A study of Mus musculus with 10 samples.

Results

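The thermogenic and beige adipocyte genes Ucp1, Cidea, Prdm16, Ppargc1a, Ppargc1b, Dio2, Elovl3, Ebf2, Esrra and Otop1 were taken by symbol from the count table, where 10 of its 56748 genes matched, and all 10 had enough counts to be tested. RNA-seq compared 5 libraries of primary adipocytes from control mice with 5 from Ad-Fam20c–KO mice. A figure legend of the study states a smaller group size than the table holds, and every library in the table was used. Control cells carried the Fam20c-floxed allele without Cre, and KO cells carried the same floxed allele together with Adiponectin-Cre, which is driven by an adipocyte promoter and so is not made by cells that do not become adipocytes. Stromal vascular cells of inguinal fat came from male mice aged 6 to 8 weeks on a C57BL/6J backcross, and in both groups they were differentiated for 6 to 8 days, first in isobutylmethylxanthine, dexamethasone, insulin and rosiglitazone, later in insulin plus rosiglitazone and at the end in insulin without the other agents. Rosiglitazone is an agonist of PPARγ that by itself favors brown-type genes, and isobutylmethylxanthine keeps cAMP from being broken down, so every library comes from cells exposed to both agents earlier in the culture. The labels do not say whether the 5 libraries of a group came from separate animals, so P values measure the spread between these libraries.

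Brown and beige adipocytes burn fuel to make heat. Norepinephrine acts through β-adrenergic receptors and cAMP to induce Ucp1, whose protein lets protons back across the inner mitochondrial membrane without making ATP. PRDM16 and EBF2 set the identity of these cells, PGC-1α, PGC-1β and ERRα drive mitochondrial genes, and beige adipocytes arise within white depots such as the inguinal pad.

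Total counts were 18949106, 26237825, 20919307, 21253808 and 23174024 (control 1 to 5) against 20640487, 23291792, 22703260, 21686258 and 19883101 (KO 1 to 5). Levels are given as CPM, which puts the counts of all libraries on the same total after TMM scaling, and levels of different genes are compared as TPM, which divides counts by exon length before scaling. On the leading principal component, which held 23.5% of the variance, control 4 (21.7) and KO 1 (24.2) lay apart from the other 8 libraries, which ranged from -14.8 to 8.59. The labels give no batch or date for these 2 libraries. For the 10 genes and the 7 other gene lists, numbers called that change without both are given with and without them.

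Fam20c, the targeted gene, lies on chromosome 5 (plus strand, bases 138754514 to 138810077). It was at 8.86, 10.3, 11.9, 9.09 and 11.2 CPM (control 1 to 5) against 6.65, 7.29, 7.11, 7.70 and 7.74 CPM (KO 1 to 5). No KO library reached the lowest control, in the direction of the labels. Its log2 fold change was -0.49 (95% interval -0.69 to -0.29, adjusted P = 0.0137). Counts were summed over all exons, so the deleted part of the gene was not seen on its own.

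Ucp1, the uncoupling protein that defines thermogenic adipocytes, was the member called higher in KO adipocytes. It lies on chromosome 8 (plus strand, bases 83290352 to 83298452) and shares no exonic base with another gene of GENCODE M21. Its counts were 217, 321, 287, 517 and 413 (control 1 to 5) against 576, 614, 550, 698 and 667 (KO 1 to 5). These counts corresponded to 11.4, 12.0, 13.5, 25.0 and 17.5 CPM in control and 28.6, 27.0, 24.0, 32.0 and 33.9 CPM in KO cultures. All KO libraries lay above control 1, 2, 3 and 5, while control 4, at the level of the KO libraries, exceeded KO 3. The mean of 15.9 ± 5.62 CPM in controls compared with 29.1 ± 3.96 CPM in KO adipocytes (SD, n = 5 each). That is a 1.83-fold difference (95% interval 1.38 to 2.43) or 0.87 on the log2 scale (adjusted P = 0.0284 over the 14270 genes tested). In bulk cultures, more Ucp1-expressing cells and more Ucp1 RNA per cell cannot be told apart.

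The Ucp1 difference kept its direction in all fits that left out 1 library (log2 fold change 0.78 to 1.10), but its call depended on the libraries included. The adjusted P was 0.0725, 0.0693, 0.0813 and 0.0576 without control 1, 2, 3 and 5, and 0.0575, 0.0774 and 0.0856 without KO 2, 4 and 5. It passed the limit without control 4, KO 1 or KO 3. With control 4 and KO 1 both left out, the log2 fold change of Ucp1 was 1.10 (adjusted P = 0.00100).

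Cidea encodes a lipid droplet protein that is abundant in brown and beige adipocytes. The gene lies on chromosome 18 (plus strand, bases 67343604 to 67367785). It was at 47.0, 54.1, 51.5, 87.2 and 60.7 CPM (control 1 to 5) against 105, 83.8, 81.7, 83.6 and 97.6 CPM (KO 1 to 5). As for Ucp1, control 4 lay among the KO libraries, above KO 2, KO 3 and KO 4, and the other 4 control libraries lay below every KO library. The mean Cidea level of 60.1 ± 15.9 CPM in controls compared with 90.4 ± 10.4 CPM in KO adipocytes (SD, n = 5 each). This log2 fold change of 0.59 (95% interval 0.28 to 0.90) did not pass the test (adjusted P = 0.0586). Without control 4, Cidea passed it with a log2 fold change of 0.76 (adjusted P = 0.000605), and without control 4 and KO 1 the log2 fold change was 0.70 (adjusted P = 0.000525).

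**Figure D1:**
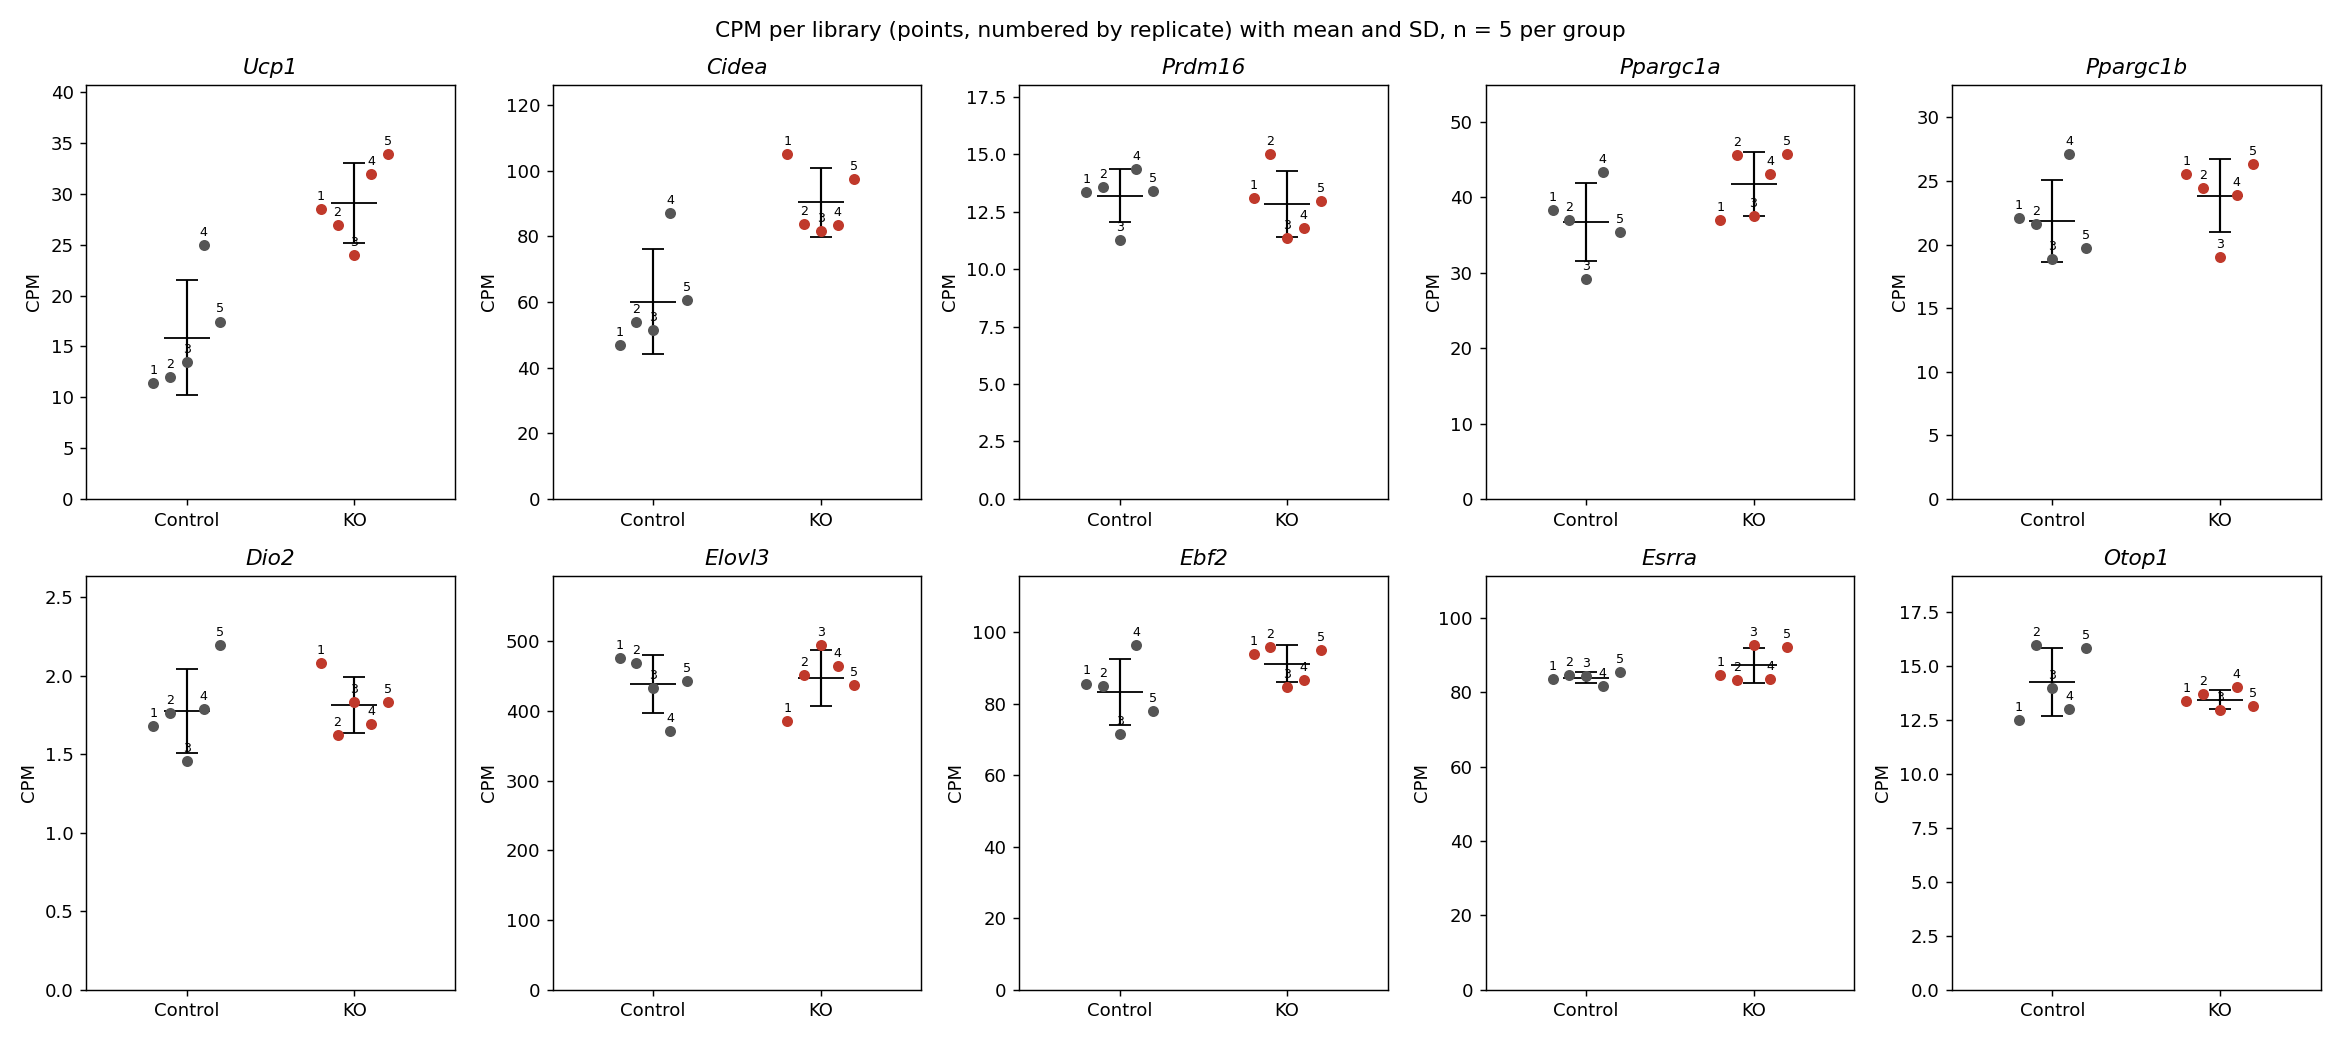
CPM of the 10 genes in each library, with points numbered by replicate, the mean as a long bar and the SD as a capped bar (n = 5 per group, each axis from 0). Ucp1 and Cidea lay higher in the KO libraries apart from control 4, which reached 25.0 CPM for Ucp1 and 87.2 CPM for Cidea, and the other 8 genes overlapped between the groups.

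Of the 10 genes, 1 was higher in KO adipocytes at an adjusted P under 0.05 and 0 were lower, while 2.17% of all genes tested were called in either direction, 0.308% higher and 1.86% lower. An unadjusted P under 0.05 was found for 2 of the 10, Ucp1 and Cidea, against 11.9% of all genes tested. DESeq2 and limma voom each called the same 2 genes, while over all genes they called 3.39% and 3.21%. The groups overlapped in CPM for each of the 10 genes, so 0 were free of overlap, against 3.97% of all genes tested. Of the 10 log2 fold changes 8 were above 0, with a median of 0.09, and over all genes tested it was above 0 for 49.7% with a median of -0.00085. When libraries were scaled to adipocyte markers instead, 5 of the 10 lay above 0 with a median of 0.03, against 27.1% of all genes and a median of -0.06.

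The other 8 genes lay between -0.09 and 0.19 on the log2 scale, with adjusted P values of 0.484 to 0.988, and their 95% intervals stayed between -0.29 and 0.40. Under other scalings or with libraries left out, the sign of the change turned for Prdm16, Dio2, Elovl3 and Esrra, so no direction is given for them.

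Prdm16, a zinc finger coregulator of brown and beige identity, lies on chromosome 4 (minus strand, bases 154316125 to 154636873). It was at 13.4, 13.6, 11.3, 14.4 and 13.4 CPM (control 1 to 5) against 13.1, 15.0, 11.3, 11.8 and 13.0 CPM (KO 1 to 5). The groups covered nearly the same range, and the log2 fold change was -0.04 (95% interval -0.23 to 0.15). Ebf2, a transcription factor that marks brown and beige precursors, lies on chromosome 14 (plus strand, bases 67233292 to 67430918). It was at 85.7, 84.9, 71.6, 96.6 and 77.9 CPM (control 1 to 5) against 93.9, 95.9, 84.8, 86.7 and 95.2 CPM (KO 1 to 5). The highest Ebf2 library was control 4, and the log2 fold change was 0.13 (95% interval -0.02 to 0.29).

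Ppargc1a encodes PGC-1α, the cold-inducible coactivator of mitochondrial genes, on chromosome 5 (minus strand, bases 51454250 to 51567726). It was at 38.3, 37.0, 29.2, 43.4 and 35.4 CPM (control 1 to 5) against 37.0, 45.6, 37.5, 43.2 and 45.8 CPM (KO 1 to 5). Control 3 was the lowest library and the groups overlapped, with a log2 fold change of 0.19 (95% interval -0.02 to 0.40). Its paralog Ppargc1b, encoding PGC-1β, lies on chromosome 18 (minus strand, bases 61298136 to 61400431). It was at 22.1, 21.6, 18.9, 27.1 and 19.7 CPM (control 1 to 5) against 25.5, 24.4, 19.0, 23.9 and 26.3 CPM (KO 1 to 5). Control 4 was highest and control 3 lowest, so the 2 control extremes enclosed all KO libraries, and the log2 fold change was 0.12 (95% interval -0.11 to 0.35).

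Esrra encodes ERRα, the nuclear receptor through which PGC-1 proteins reach many mitochondrial genes, and lies on chromosome 19 (minus strand, bases 6910977 to 6921813). It was at 83.7, 84.6, 84.4, 81.7 and 85.5 CPM (control 1 to 5) against 84.7, 83.4, 92.8, 83.5 and 92.1 CPM (KO 1 to 5). KO 3 and KO 5 lay above the rest and the other 3 KO libraries lay within the control range. Its log2 fold change was 0.06 (95% interval -0.04 to 0.15).

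Dio2 encodes the type 2 deiodinase that makes active thyroid hormone within brown adipocytes, on chromosome 12 (minus strand, bases 90724552 to 90738438). It rested on few fragments, with 32, 47, 31, 37 and 52 counts (control 1 to 5) against 42, 37, 42, 37 and 36 counts (KO 1 to 5). These counts overlapped throughout, and the log2 fold change of 0.02 had a wide 95% interval (-0.29 to 0.33). Elovl3, an elongase of very long chain fatty acids that rises in brown fat in the cold, lies on chromosome 19 (plus strand, bases 46131897 to 46135694). It was at 477, 469, 433, 371 and 443 CPM (control 1 to 5) against 385, 452, 495, 465 and 438 CPM (KO 1 to 5). Its 2 lowest libraries were control 4 and KO 1, and the log2 fold change was 0.03 (95% interval -0.13 to 0.19). Otop1, a proton channel gene found at higher levels in brown than in white fat, lies on chromosome 5 (plus strand, bases 38275972 to 38304217). It was at 12.5, 16.0, 14.0, 13.0 and 15.8 CPM (control 1 to 5) against 13.3, 13.7, 13.0, 14.0 and 13.1 CPM (KO 1 to 5). All KO libraries lay within the control range, with a log2 fold change of -0.09 (95% interval -0.26 to 0.08).

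Some of these genes share exonic bases with a neighbor. The library kit does not mark the strand, so fragments from shared bases cannot be assigned to either gene. Such overlaps covered 424 of 6928 exonic bases of Ebf2 (with the antisense gene Gm10860), 164 of 4387 of Esrra (with Trmt112 and Mir6990) and 109 of 9321 of Prdm16 (with B230104I21Rik). Dio2 shared 100 of 5815 bases with Gm26512 and Elovl3 shared 10 of 1975 with Pitx3, and the other 5 genes shared 0.

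Compared per length, the 10 genes covered a wide range of levels. Elovl3 was the most abundant at a mean of 731 TPM over the 10 libraries, followed by Cidea at 219 TPM, and neither overlapped the next gene in any library. Esrra (63.6 TPM), Ucp1 (44.6 TPM) and Ebf2 (41.0 TPM) came next, and the range of Ucp1 overlapped those of Esrra and Ebf2, which lay apart from each other. Ppargc1a (19.4 TPM) and Ppargc1b (18.6 TPM) did not differ beyond their spread, and the lowest Ppargc1b library overlapped the highest of Otop1 (13.1 TPM). Prdm16 (4.55 TPM) and Dio2 (1.01 TPM) were lowest, each apart from its neighbors. The place of Ucp1 in this order differed between the groups. In control cultures Ucp1 had 31.8 ± 10.7 TPM and Ebf2 39.5 ± 4.04 TPM (SD, n = 5), with Ucp1 above Ebf2 in 1 of 5 libraries, and in KO cultures Ucp1 had 57.4 ± 8.42 TPM and Ebf2 42.5 ± 1.87 TPM (SD, n = 5), with Ucp1 above Ebf2 in 5 of 5.

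Deviations of Ucp1 and Cidea from their group means went together when both groups were pooled. Over the 10 libraries, with log2 CPM centered on each group's mean, Pearson's r between the 2 genes was 0.877 and Spearman's rho 0.855. The KO libraries alone followed this less closely. KO 1 had the highest Cidea (105 CPM) with Ucp1 at 28.6 CPM, and KO 4 had Ucp1 at 32.0 CPM with Cidea at 83.6 CPM. Without control 4 and control 1, the 2 libraries farthest from the median of Ucp1, r was 0.576, so much of this relation rested on those libraries. Elovl3 varied in the opposite way to Ucp1 (r = -0.719, rho = -0.770), and this too rested largely on them (r = -0.371 without). Among 12906 genes compared, those whose centered levels were most like Ucp1 were Kng2 (r = 0.925), Tnfrsf12a (r = 0.908), Ppfibp2 (r = 0.907), Dhx32 (r = 0.907) and Lactb2 (r = 0.901). Without the same 2 libraries, r for these 5 genes was 0.784, 0.773, 0.842, 0.810 and 0.787. These values describe 10 libraries and were selected as the highest of many, so they carry no test. Centering removed the difference between the groups, and in KO against control none of these 5 genes was called (adjusted P = 0.111 to 0.848). The log2 fold change was 0.50 for Kng2, 0.11 for Tnfrsf12a, 0.06 for Dhx32 and 0.07 for Lactb2, and -0.41 for Ppfibp2, opposite to Ucp1.

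**Figure D2:**
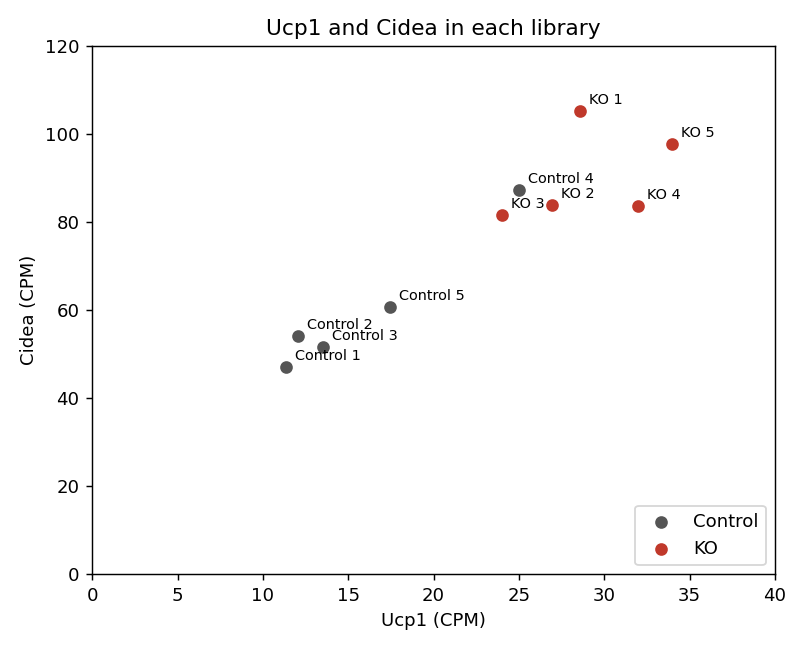
Ucp1 (horizontal axis, CPM) against Cidea (vertical axis, CPM) in each of the 10 libraries. Control 4, at 25.0 CPM of Ucp1 and 87.2 CPM of Cidea, lay among the KO libraries, and the other 4 control libraries lay at 11.4 to 17.5 CPM of Ucp1.

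Of 33 other genes selective for brown or beige adipocytes or part of their program, 29 were tested. In KO adipocytes 3 were called higher (Hspb7, Plin5 and Pdk4) and 0 lower, against 0.308% and 1.86% of all genes tested. An unadjusted P under 0.05 was found for 10 of the 29, against 11.9% of all genes. DESeq2 called 6 and limma voom 7 of the 29 in either direction, against 3.39% and 3.21% of all genes. The number called depended on the libraries, with 2 to 6 when 1 was left out (6 without control 4) and 7 without control 4 and KO 1. Of the 29 log2 fold changes 21 were above 0, with a median of 0.15, against 49.7% and -0.00085 over all genes tested. Under scaling to adipocyte markers 19 lay above 0, with a median of 0.09, against 27.1% and -0.06 over all genes. Zic1, Tmem26, Bmp8b and Slc27a2 were too low to test, with at most 23 counts in a library. The most abundant were Cox7a1 (874 TPM), Cox8b (528 TPM), Pdk4 (386 TPM) and Slc36a2 (362 TPM).

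Hspb7, a small heat shock protein gene, was at 69.5, 67.2, 60.3, 86.6 and 63.0 CPM (control 1 to 5) against 130, 103, 90.0, 96.0 and 101 CPM (KO 1 to 5). All KO libraries lay above all control libraries, with control 4 the highest control and KO 1 the highest KO library. Its log2 fold change was 0.59 (95% interval 0.35 to 0.82, adjusted P = 0.0121). Plin5, a lipid droplet protein at contacts with mitochondria, averaged 73.9 ± 3.36 CPM in controls against 89.9 ± 6.93 CPM in KO adipocytes (SD, n = 5 each), again without overlap. The log2 fold change of Plin5 was 0.28 (adjusted P = 0.0170), and its call was lost without control 3 (adjusted P = 0.0536) or control 5 (adjusted P = 0.0504). Scaling to adipocyte markers (adjusted P = 0.104) and the replicate number as a block (adjusted P = 0.0636) ended the Plin5 call too. Pdk4, a kinase that holds back pyruvate oxidation and is induced by PGC-1 and PPAR signals, averaged 376 ± 28.3 CPM in controls against 457 ± 14.8 CPM in KO adipocytes (SD, n = 5 each), without overlap. Its log2 fold change was 0.28 (adjusted P = 0.0117), and scaling to adipocyte markers ended the call (adjusted P = 0.102). Cox7a1, a cytochrome c oxidase subunit gene of brown fat and muscle, averaged 136 ± 6.70 CPM in controls against 151 ± 3.21 CPM in KO adipocytes (SD, n = 5 each). Its groups did not overlap, but the log2 fold change of 0.16 did not pass the test (adjusted P = 0.0775). Without control 4 it passed (adjusted P = 0.0427), but not without any other single library (adjusted P = 0.112 to 0.175), without control 4 and KO 1 (adjusted P = 0.0617) or under scaling to adipocyte markers (adjusted P = 0.279). Of the 9 alternatives other than leaving out 1 library, 2 called Cox7a1, DESeq2 (adjusted P = 0.0133) and limma voom (adjusted P = 0.0318). Tnfrsf9, a receptor gene used as a beige marker, had the largest change in size of the 29 and lay lower in KO adipocytes, at 13.7 ± 3.83 CPM in controls against 7.79 ± 2.26 CPM (SD, n = 5 each), with overlap. Its log2 fold change of -0.82 did not pass the test (adjusted P = 0.0598). It passed without control 1 (adjusted P = 0.0472) or KO 1 (adjusted P = 0.00873) and not without any of the other 8 libraries (adjusted P = 0.0601 to 0.158). Of the 9 alternatives other than leaving out 1 library, 6 called Tnfrsf9 lower. The adjusted P was 0.00100 without control 4 and KO 1, 0.0175 under scaling to adipocyte markers, 0.00290 with DESeq2 and 0.0150 with limma voom. Upper-quartile factors (adjusted P = 0.0492) and testing all genes with at least 1 count (adjusted P = 0.00658) also gave a call. It was not called with RLE factors (adjusted P = 0.0580), at a minimum count of 50 (adjusted P = 0.0619) or with the replicate number as a block (adjusted P = 0.154).

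**Figure D3:**
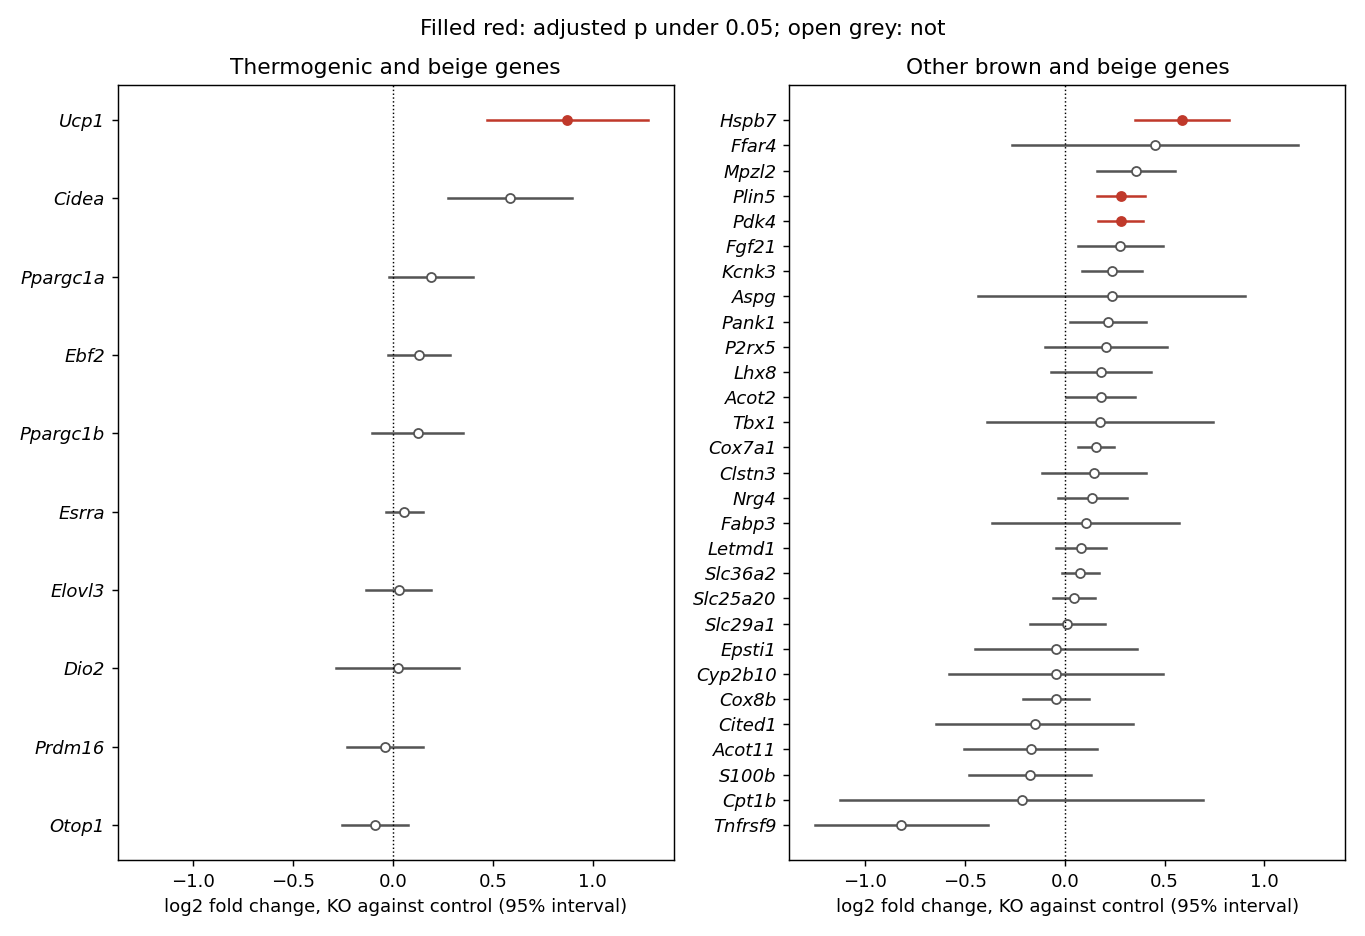
Log2 fold change of KO against control with its 95% interval (horizontal axis) for the 10 thermogenic and beige genes (left) and the 29 other brown and beige genes tested (right), with filled red points for an adjusted P under 0.05. Ucp1 at 0.87 on the left, and Hspb7 at 0.59, Plin5 at 0.28 and Pdk4 at 0.28 on the right, passed this limit.

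Known targets of PGC-1 and ERR are mostly genes of mitochondrial enzymes, and the list also holds Vegfa, which encodes a secreted angiogenic factor. Of its 42 genes 41 were tested, while Atp5o was not matched because the table holds that symbol only with identifier suffixes. Of the 41, 39 had a log2 fold change above 0, with a median of 0.08, against 49.7% and -0.00085 over all genes tested. The 12 adipocyte markers read below had a median of 0.08 too, with 10 of the 12 above 0, so this shift was not particular to the list. Under scaling to adipocyte markers 35 of the 41 lay above 0, with a median of 0.03, against 27.1% and -0.06 over all genes. The differences were small, and Pdk4, counted among the brown and beige genes too, was the 1 gene that edgeR called, while DESeq2 called 7 and limma voom 4. Over all genes tested the 3 tools called 2.17%, 3.39% and 3.21%. An unadjusted P under 0.05 was found for 15 of the 41, against 11.9% of all genes. Of the 41, edgeR called 2 without control 4 and 3 without control 4 and KO 1. Abundant genes of this list included the ATP synthase genes Atp5b (3063 TPM) and Atp5a1 (2124 TPM) and the cytochrome c oxidase gene Cox4i1 (2064 TPM). These genes are also expressed by other cell types.

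Of 50 transcription factors and coregulators that promote or restrain the thermogenic program, 47 were tested and edgeR called 0, against 2.17% of all genes. An unadjusted P under 0.05 was found for 5 of the 47, against 11.9% of all genes, and DESeq2 and limma voom called 0. Without control 4 edgeR called 1, and without control 4 and KO 1 it called 0. Their median log2 fold change was 0.04, and -0.02 under scaling to adipocyte markers. Cebpa (645 TPM), Nfe2l1 (460 TPM), Pparg (257 TPM) and Nr1h3 (191 TPM) were the most abundant. Foxc2, Esrrb and Esrrg were too low to test.

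The adrenergic and cAMP list runs from receptors to kinases and the factors they reach. Of its 31 genes 30 were tested, with 2 called higher (Adra2a and Atf4) and 2 called lower (Pde4b and Adora2a) in KO adipocytes. These were 4 in all, against 2.17% of all genes tested, while DESeq2 called 4 of the 30 and limma voom 5. An unadjusted P under 0.05 was found for 6 of the 30, against 11.9% of all genes. With 1 library left out 2 to 5 were called, and 5 without control 4 and KO 1. The median log2 fold change was 0.04, and -0.02 under scaling to adipocyte markers. Pde4b, a phosphodiesterase that breaks down cAMP, was at 9.07, 9.49, 11.0, 13.2 and 10.8 CPM (control 1 to 5) against 6.99, 6.15, 6.28, 4.95 and 4.99 CPM (KO 1 to 5). The groups did not overlap, and the log2 fold change was -0.87 (95% interval -1.13 to -0.60, adjusted P = 0.00206). Adora2a, an adenosine receptor gene whose product raises cAMP, was at 2.26, 2.70, 2.63, 2.61 and 3.00 CPM (control 1 to 5) against 1.34, 0.878, 1.66, 0.916 and 1.27 CPM (KO 1 to 5). It too showed no overlap, with a log2 fold change of -1.12 (95% interval -1.50 to -0.74, adjusted P = 0.00384).

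Adra2a, the α2A-adrenergic receptor that lowers cAMP, rested on 11 to 30 counts per library. Its level was 0.600 ± 0.128 CPM in controls against 1.15 ± 0.147 CPM in KO adipocytes (SD, n = 5 each), with a log2 fold change of 0.94 (adjusted P = 0.0231). The call was lost without control 1 or 2 (adjusted P = 0.0544 and 0.0577) or KO 2, 4 or 5 (adjusted P = 0.0590, 0.0645 and 0.0645). With the replicate number as a block it was lost too (adjusted P = 0.0995). Atf4, a stress-responsive transcription factor, averaged 322 ± 16.9 CPM in controls against 367 ± 9.65 CPM in KO adipocytes (SD, n = 5 each), with a log2 fold change of 0.19 (adjusted P = 0.0388). Its call held without control 4 alone among the single libraries, and without each of the other 9 the adjusted P was 0.0586 to 0.106. Scaling to adipocyte markers (adjusted P = 0.147), testing all genes with at least 1 count (adjusted P = 0.0696) and the replicate number as a block (adjusted P = 0.127) also ended it. The most abundant genes of this list were Prkar2b (591 TPM), Atf4 (475 TPM), Prkaca (345 TPM) and Pde3b (247 TPM). Adrb3, the β3-adrenergic receptor gene, had 108 TPM and Adrb1 0.867 TPM.

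Heat can also come from creatine, calcium and lipid cycles that do not need UCP1. Of 28 genes of such cycles 22 were tested and edgeR called 0, against 2.17% of all genes tested. An unadjusted P under 0.05 was found for 5 of the 22, against 11.9% of all genes, and DESeq2 called 2 and limma voom 2. edgeR called 1 without control 4, without KO 1 and without both. The median log2 fold change was 0.07, and 0.01 under scaling to adipocyte markers. Pnpla2 (2924 TPM), Slc25a5 (1661 TPM), Lipe (651 TPM) and Slc25a4 (551 TPM) were the most abundant. Ckmt1 and Pln had 0 counts in every library, and Ckmt2, Sln, Ryr1 and Ryr2 were too low to test.

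Of 21 genes usually higher in white than in brown adipocytes, 20 were tested and 1 was called, against 2.17% of all genes tested. The gene called was Ngfr, which was lower in KO adipocytes (2 called by DESeq2 and 3 by limma voom). Without control 4, and without control 4 and KO 1, 3 were called. Ngfr, the p75 neurotrophin receptor, was at 60.0, 61.4, 80.4, 50.9 and 71.5 CPM (control 1 to 5) against 43.4, 34.6, 41.6, 41.5 and 38.6 CPM (KO 1 to 5). Control 4 was the lowest control library and lay above all KO libraries, and the log2 fold change was -0.70 (95% interval -0.93 to -0.47, adjusted P = 0.00324). The largest change of the list went the other way, in Grem1, a secreted BMP antagonist gene at 3.82 ± 2.23 CPM in controls against 8.04 ± 2.10 CPM in KO adipocytes (SD, n = 5 each), with overlap. Its log2 fold change of 1.08 did not pass the test (adjusted P = 0.0932). Grem1 passed without control 4 (adjusted P = 0.000799) and without control 4 and KO 1 (adjusted P = 0.000140), and not without any other single library (adjusted P = 0.131 to 0.214). Of the 9 alternatives other than leaving out 1 library, 4 called Grem1 higher. These included DESeq2 (adjusted P = 0.00811), limma voom (adjusted P = 0.00270) and testing all genes with at least 1 count (adjusted P = 0.0127), each with all libraries kept. Of the 20 log2 fold changes 11 were above 0, against 49.7% of all genes tested. Their median of 0.01 turned to -0.05 under scaling to adipocyte markers, where the median of all genes was -0.06. Serpina3n (2946 TPM), Rbp4 (1948 TPM), Retn (1419 TPM) and Agt (655 TPM) were the most abundant.

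Paralogs of the 10 genes were read alongside them. Of 31 paralogs 20 were tested, and 5 had a log2 fold change above 0, against 49.7% of all genes tested. Only 1 was called, against 2.17% of all genes. It was Dio3, which was lower in KO adipocytes (1 called by DESeq2 and 1 by limma voom). The median was -0.05, and -0.11 under scaling to adipocyte markers. Dio3, the deiodinase that inactivates thyroid hormone, was at 35.6, 37.4, 38.3, 26.5 and 38.3 CPM (control 1 to 5) against 25.8, 22.5, 26.8, 24.4 and 25.0 CPM (KO 1 to 5). Control 4 lay just below KO 3, and the other 4 control libraries lay above every KO library. The log2 fold change was -0.50 (95% interval -0.70 to -0.30, adjusted P = 0.0128), and the adjusted P was 0.0510 without KO 2. Per length, Dio3 (48.4 TPM) was more abundant than Dio2 (1.01 TPM), while Dio1 had at most 1 count in a library.

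Among the other paralogs, Ucp2 had a mean of 60.4 TPM over the 10 libraries, against 44.6 TPM for Ucp1 over the same libraries, and Ucp3 had 2.98 TPM. Cidec, the lipid droplet gene of white adipocytes, had 5390 TPM and was far above Cidea, while Cideb was too low to test. Of the elongases, Elovl1 (111 TPM), Elovl5 (63.1 TPM), Elovl4 (46.0 TPM) and Elovl6 (15.4 TPM) were all below Elovl3. Ebf1 had 58.3 TPM and Ebf3 8.93 TPM, and the Prdm16 paralog Mecom had 0.659 TPM. Pprc1, the PGC-1-related coactivator, had 17.3 TPM, close to Ppargc1a and Ppargc1b. Esrrb and Esrrg had at most 15 and 9 counts in a library, and Otop2 and Otop3 had 0 in every library.

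Markers of the cell types that such cultures could hold were read in the same libraries. The 12 adipocyte markers, led by Fabp4, summed to 40946, 40753, 40116, 39750 and 40964 CPM (control 1 to 5) against 42366, 43511, 43788, 41955 and 41666 CPM (KO 1 to 5). The sums were 1.05-fold higher in KO cultures without overlap, while edgeR called 0 of the 12 genes (2 called by DESeq2 and 1 by limma voom). An unadjusted P under 0.05 was found for 5, against 11.9% of all genes tested. The log2 fold change was above 0 for 10 of the 12, with a median of 0.08, against 49.7% and -0.00085 over all genes. Fabp4 had 15727 TPM and Adipoq 4223 TPM, and all 12 markers had enough counts to be tested.

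Endothelial markers moved with the groups. Of 12 tested, 10 were called lower in KO cultures, against 1.86% of all genes tested, and the other 2, Tek and Flt1, were not called. Their sum was 173, 181, 208, 218 and 206 CPM (control 1 to 5) against 113, 87.1, 89.1, 74.2 and 81.1 CPM (KO 1 to 5), with Cdh5 the most abundant. The groups did not overlap, and control 4, the control with the most Ucp1 and Cidea, also had the highest endothelial sum. The median log2 fold change of the list was -1.25. The part of this difference in the Ucp1 result, and in those for Hspb7, Pde4b, Adora2a, Ngfr and Dio3, was not tested.

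Adipose progenitor markers, led by Ly6a, had 2 of 9 genes called lower (Pdgfra and Cd34), against 1.86% of all genes tested. The log2 fold change was below 0 for 8 of the 9, with a median of -0.29. Their sum was 944, 906, 959, 853 and 1082 CPM (control 1 to 5) against 823, 859, 841, 935 and 920 CPM (KO 1 to 5). These sums, much of them from Ly6a, overlapped. Pericyte and smooth muscle markers, led by Tagln in TPM, summed to 117 ± 13.1 CPM in controls against 96.2 ± 12.1 CPM in KO adipocytes (SD, n = 5 each), and the 7 of 9 genes tested all had a log2 fold change below 0, with a median of -0.35. Macrophage markers, led by Lyz2, summed to 1742 ± 336 CPM in controls against 1777 ± 412 CPM in KO adipocytes (SD, n = 5 each). Schwann cell and nerve markers, led by S100b in TPM, summed to 60.8 ± 2.21 CPM in controls against 65.6 ± 6.18 CPM in KO adipocytes (SD, n = 5 each). Of the pericyte, macrophage and Schwann cell markers edgeR, DESeq2 and limma voom called 0. An unadjusted P under 0.05 in edgeR was found for 4, 0 and 2 of them, against 11.9% of all genes tested. Skeletal muscle markers, led by Acta1, summed to 12.6 ± 2.81 CPM in controls against 12.4 ± 3.07 CPM in KO adipocytes (SD, n = 5 each), with Pax7 at 0. Lymphocyte and epithelial markers had at most 8 and 4 counts in a library, and Cd3d and Ms4a1 were among those with 0 in all.

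Promoter sequences are shown for Ucp1, the member called higher, and for Ppargc1a and Dio2, which cAMP is also known to induce and which did not pass the test. RefSeq promoters (GRCm38.p6) were found for 6 of the 10 genes, Ucp1, Prdm16, Ppargc1a, Dio2, Esrra and Otop1, and were read over the 250 bases before the RefSeq start. That start lies 600 bases before the upstream end of the GENCODE gene for Dio2 and 1432 bases inside the GENCODE gene for Otop1. For the other 4 it lies at most 5 bases from the upstream end of the GENCODE gene. The letters TGACG, the core of a cAMP response element, were searched on both strands (CGTCA on the other) and occurred in 3 of the 6, against 17.8% of 32851 promoters. The letters AAGGTCA, bound by ERR proteins, occurred in 0 of the 6 and in 4.08% of all promoters. Capitals mark TGACG or CGTCA. The windows are chr8:83290098-83290347 on the plus strand for Ucp1, chr5:51567726-51567975 on the minus strand for Ppargc1a and chr12:90739039-90739288 on the minus strand for Dio2.
Ucp1 promoter: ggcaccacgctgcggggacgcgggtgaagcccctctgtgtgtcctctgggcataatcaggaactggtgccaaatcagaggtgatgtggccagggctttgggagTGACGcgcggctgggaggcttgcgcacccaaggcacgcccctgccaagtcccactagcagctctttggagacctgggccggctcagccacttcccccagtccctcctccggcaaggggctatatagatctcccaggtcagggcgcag
Ppargc1a promoter: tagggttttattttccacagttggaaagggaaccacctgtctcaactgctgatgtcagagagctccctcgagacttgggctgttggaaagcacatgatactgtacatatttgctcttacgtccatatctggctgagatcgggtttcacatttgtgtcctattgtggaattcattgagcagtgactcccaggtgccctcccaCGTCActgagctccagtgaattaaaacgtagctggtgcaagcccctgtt
Dio2 promoter: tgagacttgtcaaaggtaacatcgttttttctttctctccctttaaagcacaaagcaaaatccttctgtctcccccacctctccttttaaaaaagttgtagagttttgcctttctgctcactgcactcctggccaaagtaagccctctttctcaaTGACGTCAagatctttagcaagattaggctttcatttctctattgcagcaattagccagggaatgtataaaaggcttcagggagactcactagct
The match begins 147 bases before the start in Ucp1 and 49 bases before it in Ppargc1a. In Dio2 the 2 matches, which begin 95 and 92 bases before the start, overlap in the palindrome TGACGTCA. A match describes these letters only, and binding was not measured here.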

How the data were processed

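The authors aligned read pairs to GRCm38.p6 (mm10 in the labels) using STAR and summed fragments per gene using featureCounts, and the deposited counts were not normalized; the strand setting is not given in the sources used here. Genes with few counts were dropped with filterByExpr (minimum count 10) and libraries scaled by TMM. KO was then compared with control over 14270 genes by the quasi-likelihood test of edgeR 4.0.16 (R 4.3.3), with P values adjusted by Benjamini and Hochberg's method and a limit of 0.05. Adjusted P values in the text are from this test unless another is named. Sex, age and culture conditions are those of the study's methods, which do not give them per library. TPM used exon lengths of GENCODE M21. Log2 CPM for correlations used a prior count of 2. Libraries of a group differed by more than sampling noise (smallest chi-square divided by its degrees of freedom, 3.52). The scripts were tested on simulated counts. The 10 genes, the lists and the markers were chosen with earlier results of these data known. Genes named are the 10, Fam20c, and of each list those called, the 4 highest in TPM and paralogs, plus the 5 most like Ucp1. Adrb1, Adrb3, Vegfa, Tnfrsf9, Grem1 and list genes named only as too low to test or not matched were added after their values were seen. Tek and Flt1 are named as the endothelial markers that were not called. Alternatives were DESeq2 1.42.0, limma voom (limma 3.58.1), other scalings and filters (minimum count 50), a replicate block, and libraries left out. Some list genes that this rule names are not reported here, and the counts and medians of their lists include them.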

Additional observations from a re-analysis of the deposited data

Results flagged for a closer look

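For the 10 thermogenic genes, Fam20c, the called genes of the 7 other lists, Cox7a1 and Kng2, each group of 5 was searched for a library far from the other 4, by the gap to its nearest neighbor as a share of the group's range. This marked 2 of 44 groups, and chance alone marks about 1 in 20. Pdk4 had 484 CPM in KO 2, against 448 to 454 CPM in the other 4 KO libraries. Dio3 had 26.5 CPM in control 4, against 35.6 to 38.3 CPM in the other 4 control libraries.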

How the results depend on the processing

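edgeR called 309 genes (44 higher and 265 lower in KO), DESeq2 484 (125 and 359), scaling to adipocyte markers 409 (19 and 390), and 498 were called with control 4 and KO 1 both left out; with 1 library left out at a time it was 187 to 442, where fewer samples were tested. Of the 10 thermogenic genes 1 was called, and 2 with DESeq2, limma voom, upper-quartile factors, scaling to adipocyte markers, all genes with at least 1 count, or control 4 and KO 1 left out; the genes were Ucp1 and Cidea each time. With 1 library left out at a time it was 0 to 2. Ucp1 was called in 9 of the 9 other alternatives (log2 fold change 0.82 to 1.10, adjusted P 0.000243 to 0.0314) and in 3 of the 10 that left out 1 library. Cidea was called in 6 of 9 (log2 fold change 0.53 to 0.70, adjusted P 0.000525 to 0.0786) and in 1 of 10. At a minimum count of 50, Dio2, Adra2a and Adora2a were not tested. The sign of the log2 fold change turned for Dio2 under scaling to adipocyte markers (-0.032) and without control 4 and KO 1 (-0.029), for Elovl3 under limma voom (-0.0055) and scaling to adipocyte markers (-0.030), and for Esrra under that scaling (-0.00067). With 1 library left out it ran from -0.097 to 0.0045 for Prdm16 (above 0 without KO 3), from -0.037 to 0.113 for Dio2 (below 0 without control 3 or KO 1) and from -0.023 to 0.080 for Elovl3 (below 0 without control 4 or KO 3); the cause was not tested. With the replicate number as a block, 214 genes were called (21 higher and 193 lower) and Ucp1 was the 1 thermogenic gene among them; under the block, Plin5, Adra2a and Atf4 did not pass the limit (adjusted P = 0.0636, 0.0995 and 0.127). Same-numbered libraries did not deviate together (r = -0.173, 0.0892, 0.263, -0.251 and 0.0337 for numbers 1 to 5), so they share only a number. Depth limits genes with few counts, such as Dio2, Adra2a and Adora2a, which had at most 52, 30 and 72 in a library.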
